A study of Mus musculus with 12 samples.

Results

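The 10 genes described here encode transcription factors of the palatal mesenchyme in 5 families of 2 paralogues: Osr1 and Osr2, Prrx1 and Prrx2, Snai1 and Snai2, Twist1 and Twist2, and Zeb1 and Zeb2. They were chosen by symbol, with earlier results of these data known though by a rule that names no measured value, and all 10 were present among the 24391 genes of the count tables. All 10 also passed the filter on low counts, which left 15958 genes. The study asked how tamoxifen, a ligand of the estrogen receptor, alters the embryonic palate. Total RNA was sequenced from anterior and posterior pieces of the palatal shelves, the 2 outgrowths of the upper jaw that later fuse into the roof of the mouth. Every group consisted of C57BL/6 mice at E13.5 (embryonic day) and held 3 libraries: control anterior (con_AP), tamoxifen anterior (TAM_AP), control posterior (con_PP) and tamoxifen posterior (TAM_PP). No source used here gives the dose, route or timing of tamoxifen, or says whether a library came from 1 embryo, from pooled shelves or from a separate litter. P-values therefore measure the spread between these libraries only.

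Odd-skipped related factors (Osr1 and Osr2) are zinc finger proteins, and mice without Osr2 have cleft palate. Prrx1 and Prrx2 are homeodomain proteins of craniofacial and limb mesenchyme. The Snail (Snai1, Snai2) and Zeb (Zeb1, Zeb2) zinc finger proteins repress epithelial genes such as that for E-cadherin through E-box sequences in promoters, the core event of epithelial-to-mesenchymal transition (EMT), while the basic helix-loop-helix (bHLH) proteins Twist1 and Twist2 bind E-boxes as dimers with E proteins and maintain neural crest-derived mesenchyme. At this stage most of a palatal shelf is mesenchyme under a thin epithelium, and the epithelial seam at which shelves fuse forms later.

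Promoters of 6 of the 10 genes were found in the RefSeq table (build GRCm38.p6), and those of 4 genes are shown because their counts moved in opposite directions under tamoxifen: Prrx1 rose, whereas Snai1, Twist1 and Twist2 fell. Each sequence runs 5′ to 3′ on the gene's strand and stops before the transcription start, or at the first base annotated as untranslated. Capitals mark the E-box of the form CAGGTG or CACCTG, the type bound by Snail and Zeb proteins.
Prrx1, chr1:163313711-163313900, minus strand: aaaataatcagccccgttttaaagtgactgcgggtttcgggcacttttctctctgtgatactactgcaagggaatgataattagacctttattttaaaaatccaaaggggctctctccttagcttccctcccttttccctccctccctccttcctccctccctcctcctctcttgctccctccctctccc
Snai1, chr2:167537945-167538194, plus strand: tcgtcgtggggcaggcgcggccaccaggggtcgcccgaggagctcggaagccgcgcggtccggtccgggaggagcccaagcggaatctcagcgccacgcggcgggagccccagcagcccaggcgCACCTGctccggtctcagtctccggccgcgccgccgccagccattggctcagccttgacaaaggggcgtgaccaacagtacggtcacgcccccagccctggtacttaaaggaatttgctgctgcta
Twist1, chr12:33957421-33957670, plus strand: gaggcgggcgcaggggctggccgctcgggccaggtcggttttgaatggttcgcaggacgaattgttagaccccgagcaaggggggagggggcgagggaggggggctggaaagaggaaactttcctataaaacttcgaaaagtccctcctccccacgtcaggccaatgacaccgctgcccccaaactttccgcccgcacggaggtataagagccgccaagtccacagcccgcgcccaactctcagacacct
Twist2, chr1:91801211-91801460, plus strand: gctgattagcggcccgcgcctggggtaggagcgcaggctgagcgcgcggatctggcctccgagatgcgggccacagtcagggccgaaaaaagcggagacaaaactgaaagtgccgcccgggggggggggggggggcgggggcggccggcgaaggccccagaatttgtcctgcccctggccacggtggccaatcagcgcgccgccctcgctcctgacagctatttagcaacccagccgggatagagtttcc
The Prrx1 run covers bases −250 to −61 and the other 3 cover −250 to −1. Of the 250 bases before the start, 47.6% were G or C in Prrx1, against 70.0% in Snai1, 62.4% in Twist1, 68.8% in Twist2 and 70.0% in Prrx2, whose sequence is not shown. Zeb2, which rose like Prrx1, has 4 starts with 49.6%, 55.6%, 54.0% and 57.6%, also not shown. The median over 32851 mouse promoters was 52.4%. The letters CACCTG in Snai1, at −126 to −121, were the only match to CANNTG, read on either strand, in these windows of the 6 genes. Of all promoters of that length, 66.2% held CANNTG and 17.2% held CAGGTG or CACCTG. The antisense gene Gm29100 has an exon that overlaps those of Twist2.

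In the anterior palate, 4 of the 10 genes rose under tamoxifen (Prrx1, Zeb1, Zeb2 and Snai2) and 5 fell (Snai1, Prrx2, Twist1, Twist2 and Osr2), while Osr1 did not pass the test. In the posterior palate the same test called 3 higher (Prrx1, Zeb2 and Zeb1) and 3 lower (Twist1, Prrx2 and Twist2). The changes were moderate, between 1.24-fold for Snai2 and 1.67-fold for Prrx1 in the anterior palate. A gene was called where edgeR's quasi-likelihood test gave an adjusted p under 0.05, the adjustment (Benjamini-Hochberg) running over every gene tested. Such calls were common: 49.7% of all genes were called in the anterior palate (25.6% higher and 24% lower), and 29% in the posterior palate (17.3% higher and 11.7% lower). The values of the 3 tamoxifen and 3 control libraries did not overlap for 9 of the 10 genes in the anterior palate, where this held for 56.5% of all genes, and for 8 in the posterior palate, against 48% of all genes. Of the 9 anterior calls, 7 ended when a trend with transcript length and GC content was removed, as described after the single genes. In bulk tissue, fewer cells that express a gene and less RNA per cell cannot be told apart.

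**Figure D1:**
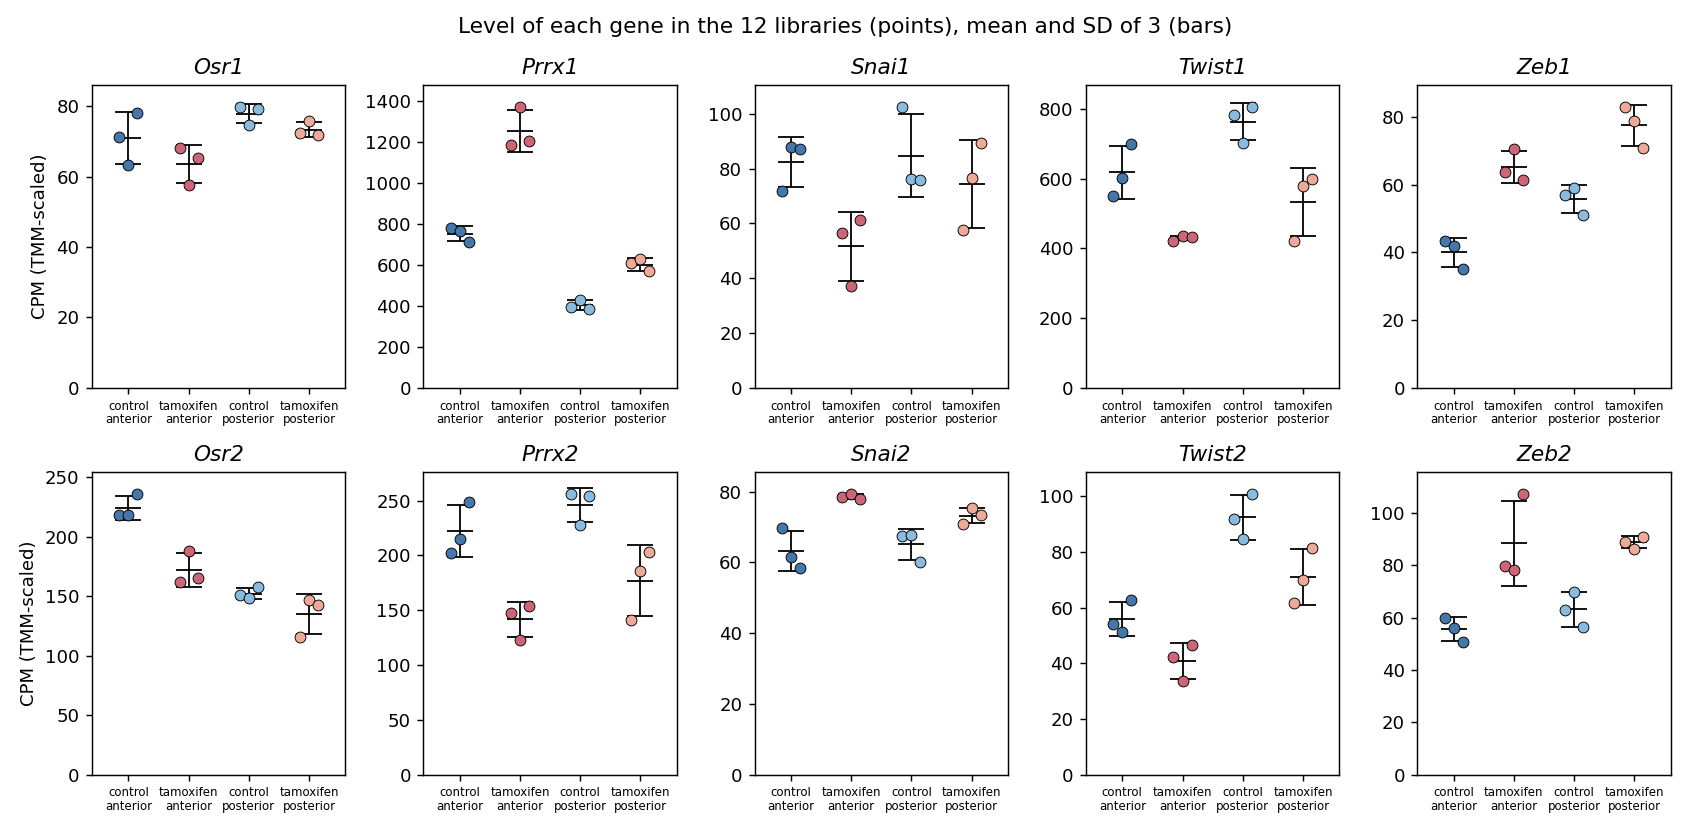
Level of each of the 10 transcription factors in CPM (vertical axes from 0, each panel with its own range) in control and tamoxifen libraries of the anterior and posterior palate. Points are single libraries, and bars give the mean and SD of 3; the Prrx1 points of tamoxifen anterior (1187 to 1369.8) lie above all other Prrx1 points.

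Prrx1 changed with region as well as with treatment. It measured 781, 768 and 711 CPM (read counts scaled to the size of the library) in the 3 control anterior libraries and 1187, 1369.8 and 1207 CPM in tamoxifen anterior. Control posterior libraries held 395, 431 and 386 CPM, and tamoxifen posterior libraries 611, 628 and 569 CPM. The tamoxifen libraries thus lay above the controls in each region without overlap, and every anterior library lay above every posterior library of the same treatment. The log2 fold change under tamoxifen was 0.74 ± 0.08 (SE, n = 3 against 3, adjusted p = 3.89e-06) in the anterior and 0.58 ± 0.08 (adjusted p = 0.000323) in the posterior palate. Anterior against posterior, Prrx1 was higher by a log2 fold change of 0.90 ± 0.08 in controls (adjusted p = 3.15e-07) and 1.06 ± 0.08 under tamoxifen (adjusted p = 4.27e-08).

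Its paralogue Prrx2 moved the other way under treatment. Control anterior libraries held 202, 215 and 248.9 CPM, against 147, 123 and 154 CPM in tamoxifen anterior. Posterior controls measured 256, 228 and 254 CPM and the tamoxifen libraries 141, 186 and 203 CPM. Every tamoxifen library was below every control of its region, and the first tamoxifen posterior library was the lowest of its group. Prrx2 fell by 0.65 ± 0.12 on the log2 scale in the anterior (adjusted p = 0.000413) and by 0.48 ± 0.12 in the posterior palate (adjusted p = 0.00931). Between regions it did not pass the test, with a log2 difference of −0.15 in controls (95% interval −0.40 to 0.11, adjusted p = 0.416).

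Zeb1 and Zeb2, large zinc finger and homeodomain repressors, rose in each region. Zeb1 measured 43.3, 41.8 and 35.1 CPM in control anterior and 63.7, 70.7 and 61.5 CPM in tamoxifen anterior. It measured 57.0, 58.9 and 51.0 CPM in control posterior and 82.8, 78.9 and 70.8 CPM in tamoxifen posterior. The groups did not overlap in either region, and control posterior libraries lay above control anterior ones. The log2 fold change of Zeb1 was 0.71 ± 0.09 in the anterior (adjusted p = 2.12e-05) and 0.48 ± 0.09 in the posterior palate (adjusted p = 0.00199). Between regions in controls, Zeb1 was lower anteriorly by a log2 fold change of −0.48 ± 0.09 (adjusted p = 0.00133). Under tamoxifen the regional difference was −0.25 ± 0.09 and did not pass the test (adjusted p = 0.0773), though it did without the second tamoxifen anterior library (adjusted p = 0.0418).

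Zeb2 stood at 60.0, 55.9 and 50.8 CPM in control anterior and at 79.6, 78.4 and 107 CPM in tamoxifen anterior. Posteriorly it stood at 63.1, 69.9 and 56.4 CPM in controls and at 89.1, 86.3 and 90.9 CPM under tamoxifen. The third tamoxifen anterior library was the highest of all 12. Zeb2 rose by a log2 fold change of 0.67 ± 0.11 in the anterior (adjusted p = 0.00015) and 0.49 ± 0.11 in the posterior palate (adjusted p = 0.00478), and no regional difference was called. Reads of overlapping genes could be shared with Zeb2 or Zeb1, since no strand setting of the counting is given in the sources used here. Zeb2os, which overlaps an exon of Zeb2, measured 1.03 to 2.32 CPM, and Gm10125, antisense to Zeb1, measured 0.679 to 1.70 CPM over the 12 libraries. Neither was called in any of the 5 comparisons.

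Snai1 and Snai2, the Snail family repressors, moved apart in the anterior palate. Snai1 measured 71.9, 87.99 and 87.0 CPM in control anterior and 56.6, 37.3 and 61.1 CPM in tamoxifen anterior. The groups did not overlap, but the spread within them was wide. Snai1 fell by 0.67 ± 0.20 on the log2 scale (adjusted p = 0.0173), and this call was lost without the second control anterior library (adjusted p = 0.0574) or the third (adjusted p = 0.068). Posteriorly, Snai1 ranged from 75.7 to 102 CPM in controls and from 57.5 to 89.4 CPM under tamoxifen, which overlap, and was not called (log2 difference −0.19, 95% interval −0.63 to 0.26).

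Snai2, also known as Slug, measured 69.6, 61.6 and 58.4 CPM in control anterior and 78.5, 79.3 and 78.0 CPM in tamoxifen anterior. The 3 tamoxifen libraries were almost equal and all above the controls. The rise of 0.31 ± 0.08 (log2, adjusted p = 0.00263) was the smallest of the 4. In the posterior palate the tamoxifen libraries (70.9, 75.3 and 73.3 CPM) again lay above the controls (67.6, 67.7 and 60.0 CPM), but the difference did not pass the test (log2 difference 0.17 ± 0.08, adjusted p = 0.105). Neither Snail gene was called between regions in controls, where each had a log2 difference of −0.04.

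Twist1, which is required in the cranial neural crest, measured 552, 603 and 699 CPM in control anterior and 423, 436 and 431 CPM in tamoxifen anterior. Control posterior libraries held 784, 703 and 804.5 CPM and tamoxifen posterior libraries 421, 579 and 598 CPM. The tamoxifen libraries were below the controls in each region, and the first tamoxifen posterior library was again the lowest of its group. Twist1 fell by 0.52 ± 0.12 on the log2 scale in the anterior (adjusted p = 0.0014) and by the same 0.52 ± 0.12 in the posterior palate (adjusted p = 0.00441). Between regions in controls it was lower anteriorly in every library, with a log2 difference of −0.31 that missed the threshold (adjusted p = 0.0671). Without the third control anterior library that difference passed (adjusted p = 0.0326), as it did in DESeq2 with all libraries (adjusted p = 0.0366).

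Twist2, a close relative of Twist1 found in mesenchyme, had the largest anterior deficit of the 10. It measured 54.1, 51.1 and 62.8 CPM in control anterior and 42.3, 33.8 and 46.6 CPM in tamoxifen anterior. In control posterior it measured 91.9, 84.5 and 101 CPM, and in tamoxifen posterior 61.6, 69.9 and 81.5 CPM. Every anterior library of a treatment lay below every posterior one. The log2 fold change, anterior over posterior, was −0.72 ± 0.12 in controls (adjusted p = 0.00036) and −0.79 ± 0.12 under tamoxifen (adjusted p = 0.000151). Under tamoxifen Twist2 fell by 0.45 ± 0.12 in the anterior palate (adjusted p = 0.0059) and by 0.38 ± 0.12 in the posterior palate (adjusted p = 0.0278). The posterior call was lost on leaving out any of 4 libraries: without the first control it had an adjusted p of 0.0726, without the third control 0.12, without the first tamoxifen library 0.117 and without the second 0.0727.

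Osr2, which patterns the palatal mesenchyme, was higher in the anterior shelf and lower under tamoxifen there. It measured 218, 218 and 236 CPM in control anterior and 162, 188 and 165 CPM in tamoxifen anterior. Posterior libraries held 151, 148 and 157 CPM in controls and 116, 147 and 142 CPM under tamoxifen. Each anterior group lay above its posterior counterpart without overlap. The log2 fold change, anterior over posterior, was 0.56 ± 0.09 in controls (adjusted p = 0.000167) and 0.35 ± 0.09 under tamoxifen (adjusted p = 0.00999). Under tamoxifen Osr2 fell by 0.38 ± 0.09 in the anterior palate (adjusted p = 0.00173), and its posterior difference of −0.17 (95% interval −0.36 to 0.02) did not pass the test.

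Osr1 varied least of the 10 over the 12 libraries. It ranged from 63.3 to 78.0 CPM in control anterior, 57.7 to 68.1 CPM in tamoxifen anterior, 74.8 to 79.7 CPM in control posterior and 71.9 to 75.8 CPM in tamoxifen posterior. Control and tamoxifen libraries overlapped in each region. No comparison called it, and its anterior difference under tamoxifen was −0.15 on the log2 scale (95% interval −0.33 to 0.02, adjusted p = 0.138). Without the second control anterior library, that difference passed with an adjusted p of 0.0454.

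The tamoxifen effect was not shown to differ between regions for any of the 10. In the test of the difference itself (anterior effect minus posterior effect), edgeR called 0 of 15958 genes (0%), with 2110 at an unadjusted p under 0.05. DESeq2 called 179 genes and limma-voom 0. None of the 10 reached an unadjusted p under 0.05 by any of the 3 tools; the smallest in edgeR was 0.102, for Zeb1, whose effects differed by 0.23 (95% interval −0.05 to 0.51). For Snai1 the interval of the difference, −1.11 to 0.15, was the widest.

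The genes that rose differed from those that fell in base composition and, apart from Snai2, in transcript length. In the GRCm38 annotation the longest transcripts of Zeb2, Prrx1 and Zeb1 are 9.12, 6.53 and 5.8 kb long, with 40.6%, 43.6% and 46.1% GC. Prrx2, Snai1 and Twist1 are 1.44, 1.62 and 1.63 kb long, with 63.6%, 59.8% and 59.3% GC. Snai2, at 2.02 kb, is as short as Osr1 (2.01 kb) but has 42.6% GC against 57.0%. The same order ran through all genes: over 12684 genes the anterior tamoxifen change had a Spearman correlation of 0.593 with length and −0.59 with GC content, and the posterior change 0.556 and −0.482. These are correlations across genes, which share libraries and are not replicates. The median log2 change in the anterior palate was −0.32 in the quartile of shortest transcripts and 0.45 in that of the longest.

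**Figure D2:**
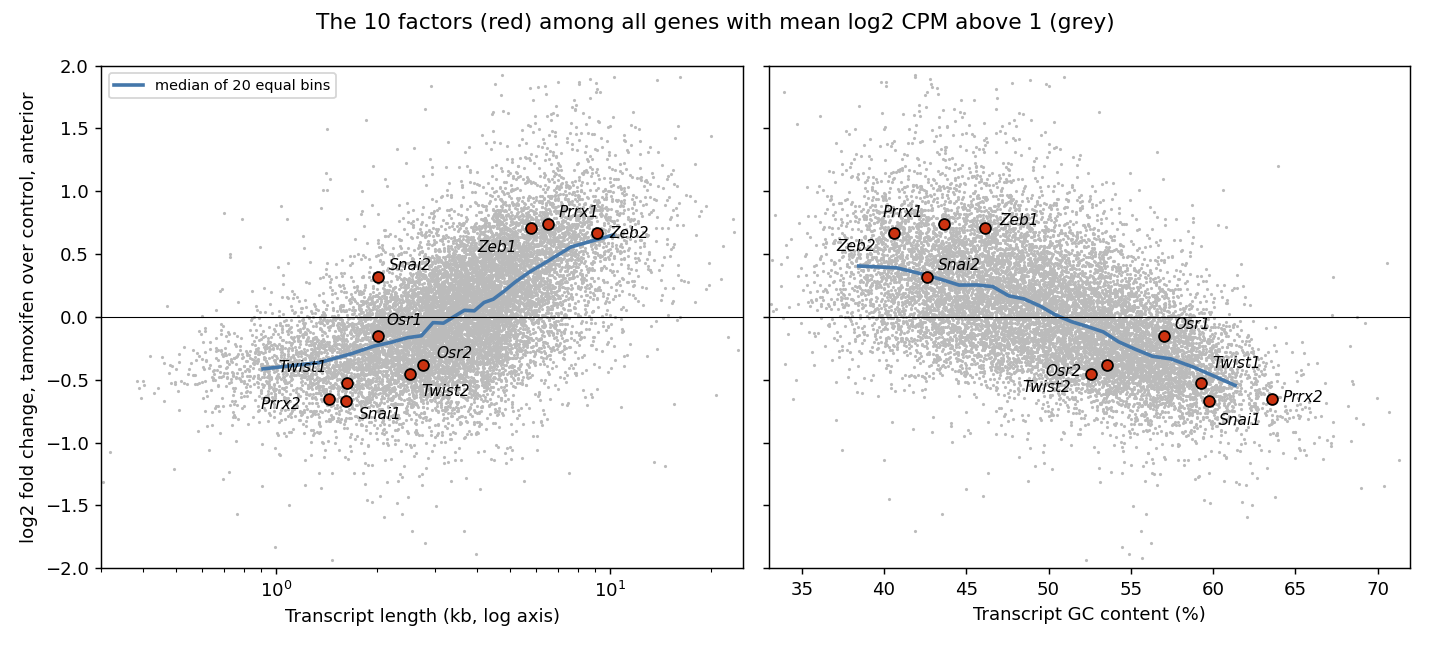
Log2 fold change of tamoxifen over control in the anterior palate (vertical axis) against transcript length in kb (left, log axis) and transcript GC content in percent (right), with the 10 transcription factors in red, other genes with a mean log2 CPM above 1 in grey and medians of 20 equal bins as a line; 45 genes lie outside the axis limits. The line rises with length and falls with GC content, and Zeb1, Zeb2 and Prrx1 lie at the long end while Prrx2, Snai1 and Twist1 lie at the short end.

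A second fit removed this trend, by subtracting in each library a smooth curve of expression against length and GC content that was estimated over the 12684 genes with a mean log2 CPM above 1. Of the 9 anterior calls, 2 held: Snai2 at 0.23 ± 0.08 (adjusted p = 0.0348) and Zeb1 at 0.23 ± 0.07 (adjusted p = 0.014). Osr1 was called higher, at 0.29 ± 0.06 (adjusted p = 0.00147), and none of the 10 was called lower in this fit. With a term for the replicate number added, Twist2 was called lower (−0.25, adjusted p = 0.00934). With the trend removed, 32.8% of all genes were called in the anterior palate. Prrx1 was left at 0.13 ± 0.06 (adjusted p = 0.0735), Twist2 at −0.25 ± 0.11 (adjusted p = 0.0899), Osr2 at −0.14 ± 0.08 (adjusted p = 0.195) and Snai1 at −0.10 ± 0.16 (adjusted p = 0.668). Prrx2 (0.06), Twist1 (0.05) and Zeb2 (−0.08) changed sign and came close to 0. In the posterior palate, where 17.9% of all genes were then called (7.72% higher and 10.2% lower), Prrx1 remained higher at 0.21 ± 0.06 (adjusted p = 0.0155) and Twist1 lower at −0.24 ± 0.08 (adjusted p = 0.0432), while the other 4 calls were lost. Of these, Twist2 stood at −0.28 ± 0.10 (adjusted p = 0.0787), Zeb1 at 0.17 ± 0.07 (adjusted p = 0.0753), Prrx2 at −0.14 ± 0.06 (adjusted p = 0.143) and Zeb2 at 0.03 ± 0.14 (adjusted p = 0.908). What gave rise to the trend was not tested.

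**Figure D3:**
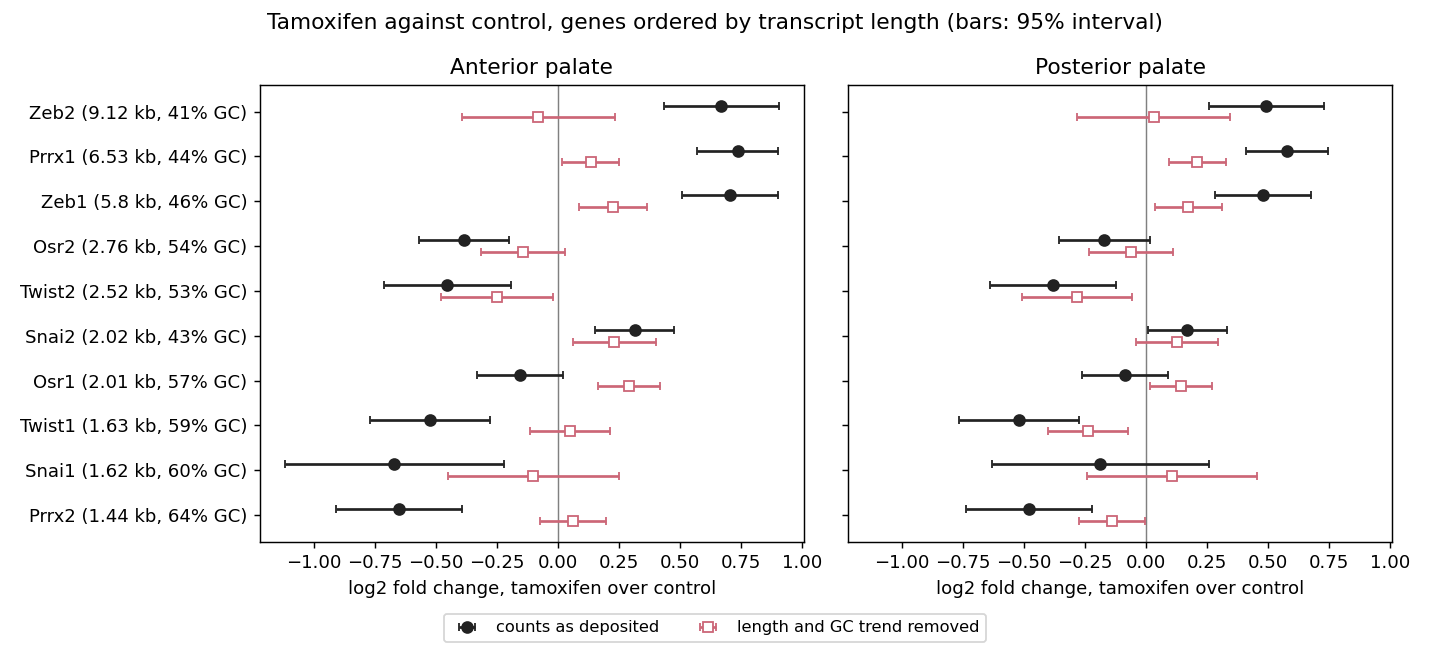
Log2 fold change of tamoxifen over control (horizontal axis) of the 10 transcription factors in the anterior (left) and posterior palate (right), ordered by transcript length; filled circles use the counts as deposited, open squares the fit with the length and GC trend removed, and bars are 95% intervals. In the anterior palate Prrx1 moves from 0.74 to 0.13 and Prrx2 from −0.65 to 0.06, while Snai2 moves from 0.31 to 0.23.

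Anterior and posterior palate were compared within each treatment. In controls, 2 of the 10 genes were higher anteriorly (Prrx1 and Osr2) and 2 lower (Twist2 and Zeb1), where 23.3% of all genes were called (10.2% higher and 13.1% lower). Under tamoxifen, Prrx1 and Osr2 were again called higher and Twist2 lower, where 17.8% of all genes were called. Values of anterior and posterior libraries did not overlap for 5 of the 10 genes in controls, against 41.2% of all genes, and for 6 under tamoxifen, against 33.1%. All 4 control calls and all 3 tamoxifen calls were kept with the trend removed. In controls Prrx1 then stood at 1.09 ± 0.06, Osr2 at 0.52 ± 0.08, Twist2 at −0.77 ± 0.11 and Zeb1 at −0.33 ± 0.07, and 26.9% of all genes were called (14.4% higher and 12.5% lower).

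Removing the trend also added regional calls. In controls Prrx2 (−0.37 ± 0.06, adjusted p = 0.000373), Twist1 (−0.47 ± 0.08, adjusted p = 0.000222) and Osr1 (−0.25 ± 0.06, adjusted p = 0.00441) were then called lower anteriorly. Under tamoxifen only Zeb1 was added (−0.27 ± 0.07, adjusted p = 0.00465), where 24.7% of all genes were called (13.8% higher and 10.9% lower, against 7.6% and 10.2% without the removal). The first tamoxifen posterior library weighed on this comparison. Without it 6 of the 10 genes were called in the counts as deposited, the added ones being Twist1 (adjusted p = 0.00186), Prrx2 (adjusted p = 0.0056) and Snai1 (adjusted p = 0.0342), all lower anteriorly. Over all genes, leaving out each library in turn gave 2090 to 2853 calls in this comparison, against 2846 with all libraries.

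**Figure D4:**
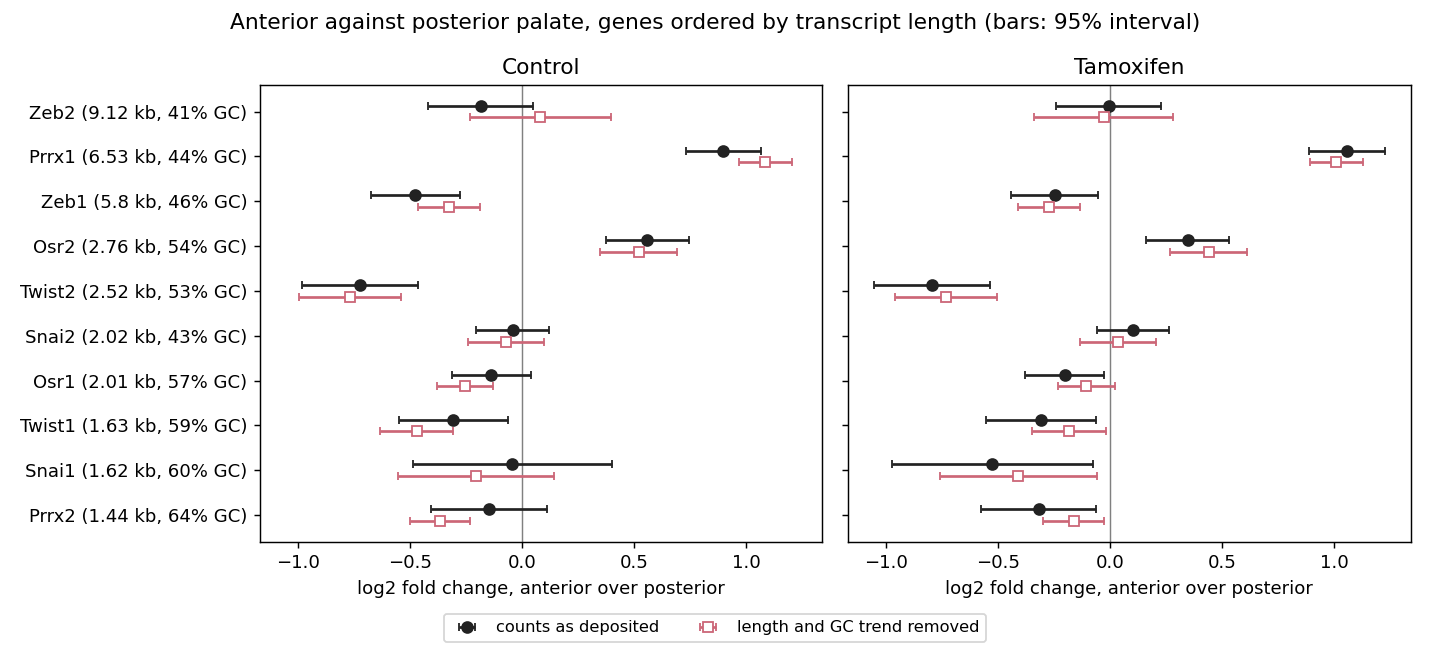
Log2 fold change of anterior over posterior palate (horizontal axis) of the 10 transcription factors in control (left) and tamoxifen libraries (right), ordered by transcript length; filled circles use the counts as deposited, open squares the fit with the length and GC trend removed, and bars are 95% intervals. Prrx1 and Osr2 lie above 0 and Twist2 below 0 in each panel with either fit.

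Levels of different genes were compared as CPM per kb of transcript. Twist1 had the highest level in all 4 groups, from 264 ± 4.24 CPM per kb (SD, n = 3) in tamoxifen anterior to 469 ± 32.8 in control posterior. Prrx2 came next in 3 groups, with 154 ± 16.7 CPM per kb in control anterior, where Prrx1 followed at 115 ± 5.70. In tamoxifen anterior this order was exchanged, with Prrx1 at 192 ± 15.4 and Prrx2 at 98.3 ± 11.3 CPM per kb, and the ranges did not overlap. These levels still hold the length and GC trend. With it removed, Prrx1 exceeded Prrx2 per kb in control anterior as well, with a ratio of 1.16 to 1.34. Osr2 followed the Prrx genes in every group, at 81.2 ± 3.64 CPM per kb in control anterior and 55.1 ± 1.75 in control posterior. Zeb1 and Zeb2 were the lowest in every group, at 6.90 ± 0.75 and 6.09 ± 0.50 CPM per kb in control anterior. Between Osr2 and the Zeb genes, neighbours often overlapped: in tamoxifen posterior the ranges of Osr2, Snai1, Osr1 and Snai2 each overlapped the next in order, from 48.9 CPM per kb for Osr2 to 36.2 for Snai2.

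Ratios within a family compared the paralogues, and for Prrx1 and Prrx2 in control anterior their order depended on the fit. Per kb, the ratio of Prrx1 to Prrx2 was 0.63 to 0.85 in control anterior, 1.73 to 2.45 in tamoxifen anterior, 0.34 to 0.42 in control posterior and 0.62 to 0.96 in tamoxifen posterior. With the trend removed the 2 anterior groups came together, at 1.16 to 1.34 in controls and 1.24 to 1.37 under tamoxifen, and the posterior libraries stayed below them, at 0.43 to 0.47 in controls and 0.50 to 0.61 under tamoxifen. Within each treatment the ranges of the 2 regions were apart with either fit, as were those of the 2 posterior groups. Those of the 2 anterior groups were apart only without the removal. Across treatments, control anterior lay within the range of tamoxifen posterior without the removal. Snai1 exceeded Snai2 per kb in all control anterior libraries (1.29 to 1.86) and was below it in all tamoxifen anterior libraries (0.59 to 0.98). With the trend removed these ranges were 1.12 to 1.47 and 0.88 to 1.13 and overlapped. Twist1 exceeded Twist2 by 10.6 to 20.03 times per kb over all 12 libraries.

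Among all genes with a mean of at least 5 CPM, the patterns most like those of the 10 were found by the root mean square difference of centred log2 CPM over the 12 libraries. Prrx1 was closest to Ndnf (0.082) and Adgrl2 (0.13), and its own SD over the libraries was 0.59. Prrx2 was closest to Rhbdf1 and Rnf26, Twist1 to Dpf1 (0.091) and to Prrx2 (0.10), Twist2 to Ndn and 6030419C18Rik, and Osr2 to 5730559C18Rik and Basp1. Zeb1 was closest to Zfp568 and Fam178a, Zeb2 to Prkca and Dnajc3, Snai1 to Mtfp1 and Tesk1, Snai2 to Asap1 and Tbc1d5, and Osr1 to Sdf4 and Ivd. Prrx2 was the only one of the 10 among the nearest genes of another of them. The pair of the 10 farthest apart was Prrx1 and Twist2 (1.05).

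Genes known to act with these factors were described from lists chosen with earlier results of these data in view. Of 25 epithelial genes repressed by Snail and Zeb proteins, 6 rose, 2 fell and 17 were not called under tamoxifen in the anterior palate, with a median log2 change of −0.03 against −0.02 over all genes. With the trend removed 8 rose and 0 fell, and the median was 0.30 against 0.0085 over all genes. In the counts as deposited, the smallest adjusted p-values were those of Dsp, Ocln and Grhl2. The desmosome gene Dsp rose by 0.63 (adjusted p = 0.000436), the tight junction gene Ocln by 1.05 (adjusted p = 0.000437) and the epithelial regulator Grhl2 by 0.59 (adjusted p = 0.000474). Cdh1, the E-cadherin gene, singled out after its value was seen, rose by 0.43 in the same counts (adjusted p = 0.0241). Posteriorly, 7 rose and 0 fell (median 0.13), and 4 rose and 0 fell with the trend removed (median 0.28). The summed level of 12 epithelium markers, 8 of them also in this list, was 1175 to 1412 CPM in control anterior, 1298 to 1573 CPM in tamoxifen anterior, 711 to 766 CPM in control posterior and 789.7 to 1044 CPM in tamoxifen posterior, and its part in these counts was not tested.

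Of 25 mesenchymal genes that mark EMT, 13 rose and 4 fell in the anterior palate under tamoxifen (median 0.28), and 9 rose and 1 fell in the posterior palate (median 0.16). The integrin gene Itgav rose by 0.98 and the cadherin gene Cdh11 by 0.87, whereas the forkhead factor Foxc2 fell by 1.34 on the log2 scale. With the trend removed 7 rose and 3 fell in the anterior palate (median 0.11), and 4 rose and 0 fell in the posterior palate (median 0.0019). Of 17 inducers of EMT, 12 rose and 1 fell in the anterior palate (median 0.46). Wnt5a rose by 0.84, the epidermal growth factor receptor gene Egfr by 1.05 and Tgfb2 by 0.61. All 3 also stayed higher with the trend removed, at 0.28 for Wnt5a, 0.31 for Egfr and 0.23 for Tgfb2, when 8 inducers were called higher and 2 lower. Posteriorly, 11 inducers rose and 0 fell (median 0.25), and 4 rose and 1 fell with the trend removed (median 0.10).

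Of 17 corepressors and regulators of Snail and Zeb protein stability, 6 rose and 1 fell in the anterior palate (median 0.12), and 4 rose and 1 fell in the posterior palate. With the trend removed, 5 rose and 2 fell in the anterior palate, and 2 rose and 1 fell in the posterior palate. The deubiquitinase gene Usp9x rose by 1.51, the CoREST gene Rcor1 by 1.10 and the kinase gene Gsk3b by 0.87, and each was still called with the trend removed (0.70, 0.71 and 0.23). Of the 7 E proteins, the dimer partners of Twist, and Id proteins, which sequester those partners, Tcf12 rose by 0.71 while Id3 fell by 0.46 and Tcf3 by 0.46 in the anterior palate. Posteriorly, 1 rose and 1 fell. With the trend removed, 2 of the 7 rose and 1 fell in each region. Of 6 other mesenchymal bHLH genes tested, 0 rose and 3 fell in the anterior palate, and 1 rose in the posterior palate. Of these, the tendon factor Scx fell by 0.74 and Tcf15 by 0.68 in the anterior palate. With the trend removed none of the 6 was called there, and 1 rose in the posterior palate.

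Of 12 genes of the Osr2 network in the palate, 5 rose and 3 fell in the anterior palate under tamoxifen (median 0.43), led by the semaphorin genes Sema3d (1.41) and Sema3a (0.83) and the Hedgehog receptor gene Ptch1 (0.93). Posterior shelves had 2 that rose and 1 that fell. Over all genes, 49.7% were called in the anterior and 29% in the posterior palate. With the trend removed, 3 of the 12 rose and 1 fell in the anterior palate (median 0.20), and 1 rose and 1 fell in the posterior palate. Of 9 tested zinc finger and homeobox relatives, 1 rose and 1 fell in the anterior palate, and 2 rose in the posterior palate. With the trend removed, 0 were called in the anterior palate and 1 rose in the posterior palate. Between regions in controls, 6 genes of the Osr2 network were higher anteriorly and 3 lower, with Shox2 higher by 4.15, Pax9 lower (−1.02) and Tbx22 lower (−2.79) on the log2 scale. Epithelial genes (9 higher, 0 lower of 25, median 0.36) and mesenchymal EMT genes (1 higher, 16 lower of 25, median −0.42) also differed between control regions, against a median of 0.02 over all genes. Foxc2 (−2.87), Lox (−2.03) and Loxl2 (−0.70) had the smallest adjusted p-values among the latter.

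**Figure D5:**
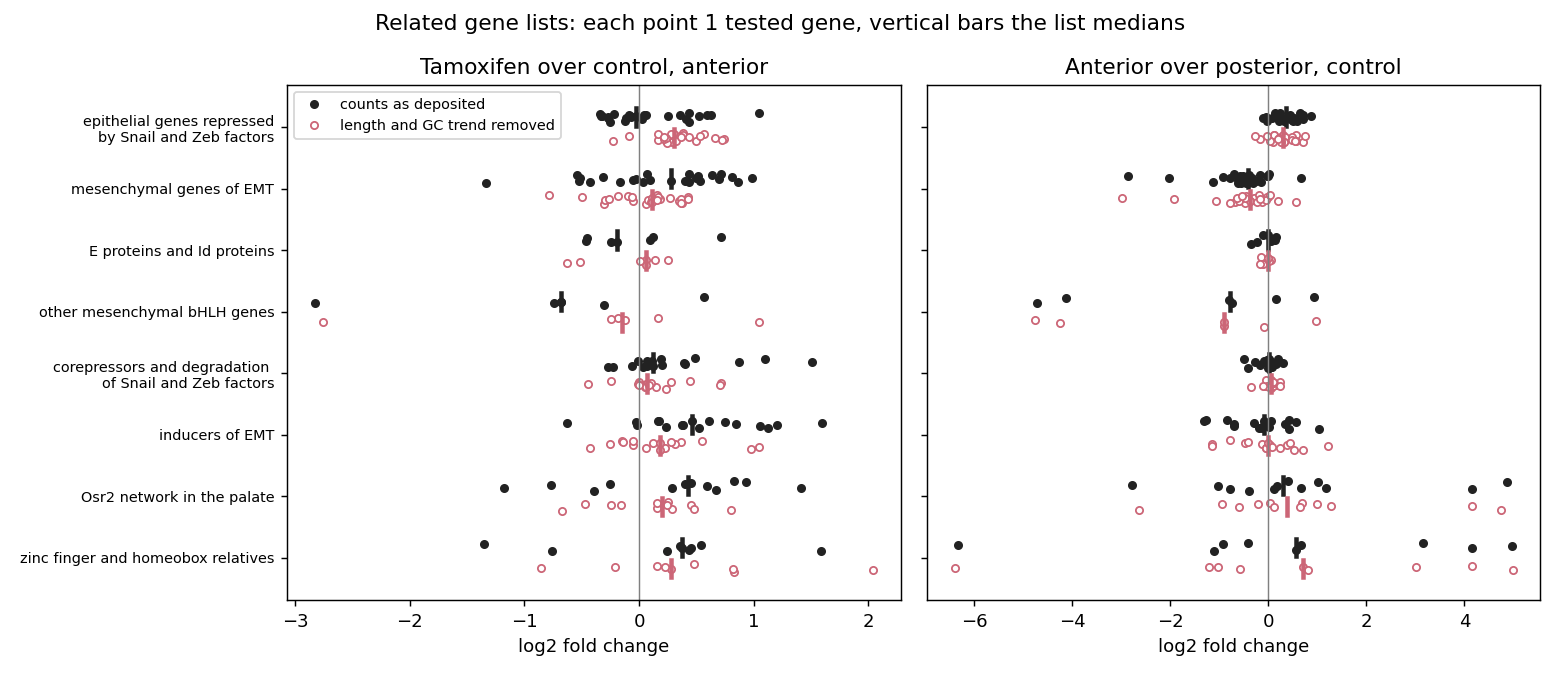
Log2 fold change of each tested gene in 8 related gene lists (rows), for tamoxifen over control in the anterior palate (left) and anterior over posterior palate in controls (right). Filled points use the counts as deposited, open points the fit with the length and GC trend removed, and vertical bars are list medians; the median of the inducers of EMT moves from 0.46 to 0.18 in the left panel.

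Markers of other tissues in the pieces differed by region and, for some lists, by treatment. All 12 palatal mesenchyme markers were detected in every group, and no list except red cell markers had a marker at 0. Summed skeletal muscle markers measured 12.5 to 34.5 CPM in control anterior and 753 to 857 CPM in control posterior, and all 12 were called lower anteriorly. Cartilage markers summed to 470.4 to 517 CPM and 2026 to 2323 CPM, and 9 of 12 epithelium markers were called higher anteriorly. Palatal mesenchyme markers summed to 11470 to 12023 CPM in control anterior and 18548 to 20738 CPM in control posterior, with 9 of 12 called lower anteriorly and 2 higher. Twist2 and Zeb1 were lower anteriorly in controls, as the muscle, cartilage and mesenchyme sums were. Prrx1 and Osr2 were higher anteriorly, opposite to those sums but in the direction of the epithelium and bone markers. Bone markers summed to 737 to 819 CPM in control anterior and 512 to 625 CPM in control posterior. Of these 7 markers, 2 were called higher anteriorly and 0 lower. The part of the marker sums in these regional values was not tested. Under tamoxifen in the anterior palate, muscle markers summed to 8.98 to 17.6 CPM, 4 of 12 being lower, and cartilage markers to 431 to 504 CPM. Each of these sums overlapped that of control anterior. Palatal mesenchyme markers summed to 10317 to 13738 CPM in tamoxifen anterior, with 3 called higher and 1 lower of 12 against control. Their sum also overlapped that of control anterior, as did the epithelium and endothelium sums. Neuron markers summed to 90.6 to 111 CPM in control anterior and 112 to 137 CPM in tamoxifen anterior (5 of 10 called higher, 0 lower). Glia markers summed to 279 to 309 CPM and 248 to 271 CPM in the same groups (2 of 8 called higher, 3 lower). Of 10 endothelium markers, 4 were called higher and 5 lower. With the trend removed, 0 of 12 mesenchyme markers were called in the anterior palate, and 1 of 12 muscle markers was lower. Glia markers then had 3 higher and 1 lower, neuron markers 3 higher and 0 lower, and endothelium markers 3 higher and 3 lower. In tamoxifen posterior, palatal mesenchyme markers summed to 14424 to 22415 CPM and cartilage markers to 1518 to 2130 CPM. Bone markers summed to 387 to 594 CPM there and to 512 to 625 CPM in control posterior. Each of these sums overlapped that of control posterior. Several other sums lay above all control posterior libraries. Muscle markers summed to 933 to 1274 CPM (2 of 12 called higher, 0 lower), and epithelium markers to 789.7 to 1044 CPM (5 of 12 higher, 0 lower). With the trend removed, 4 muscle markers and 2 epithelium markers were called higher there, and 0 lower. Neuron markers summed to 130 to 141 CPM in control posterior and 153 to 205 CPM in tamoxifen posterior, endothelium markers to 584 to 623 CPM and 628 to 681 CPM, and pericyte and smooth muscle markers to 509.6 to 530.2 CPM and 552 to 668 CPM. In the same comparison Prrx1, Zeb1 and Zeb2 were called higher, and Twist1, Prrx2 and Twist2 lower. The part of the marker sums in the tamoxifen changes of the 10 genes was not tested.

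Library totals ran from 39384932 to 50163320 counts, except for the first tamoxifen anterior library with 73017438. At these depths every level of the 10 genes rests on at least 1498 counts. With 3 libraries against 3, an exact permutation test of a single gene could not go below a two-sided p of 0.1, and the adjusted p-values given here rely on edgeR's pooling of the spread over genes and groups.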

How the data were processed

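Total RNA of 12 libraries from mouse palatal shelves was sequenced by the authors. The authors deposited raw read counts per gene for each library, 1 table a library with 24391 symbols, tested here to be whole numbers. The submitters' processing notes name HISAT2, StringTie and the build mm9; the labels and files give no version, annotation or strand setting. Groups came from the sample titles.

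From the counts, 15958 genes passed filterByExpr and were fitted in edgeR 4.0.16 (R 4.3.3) with TMM scaling, 1 mean per group over all 12 libraries and robust quasi-likelihood dispersions, with 8 residual degrees of freedom. P-values were Benjamini-Hochberg adjusted over all genes in each of 5 comparisons, with calls under 0.05. Fold changes are log2 values from this fit. CPM are TMM-scaled, and CPM per kb uses the longest GENCODE M21 transcript of each symbol. The trend with length and GC content was fitted per library with natural splines (4 degrees of freedom each) over genes averaging above 1 in log2 CPM, then used as an offset. Because the build of that annotation differs from mm9, no gene coordinates are given apart from the RefSeq promoters. The tests were tried on simulated counts with planted fold changes. The removal of the trend was tried on a planted trend with length alone, equal in all tamoxifen libraries. A GC trend and differences of the trend between libraries were not simulated.

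The 10 genes and the lists were chosen with earlier results of these data known. All 10 are named; from a list, up to 3 genes with the smallest adjusted p in a comparison; and for each of the 10, its 2 nearest patterns. Marker lists covered mesenchyme, epithelium, endothelium, skeletal muscle, neurons, glia, leukocytes, cartilage, bone, pericytes and red cells. Alternatives were DESeq2 1.42.0, limma-voom 3.58.1, other scalings and filters, a threshold of 0.01, a replicate block, removal of the trend and leaving out each library.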

Additional observations from a re-analysis of the deposited data

How the results depend on the processing

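Leaving out 1 library at a time, the number of the 10 genes called ranged from 8 to 9 for tamoxifen in the anterior palate, 5 to 6 in the posterior palate, 0 to 0 for the difference of the effects, 4 to 5 between control regions and 3 to 6 between tamoxifen regions. The numbers of all genes called were 6553 to 7495, 2714 to 4078, 0 to 6, 2483 to 3577 and 2090 to 2853 in the same order. At an adjusted p under 0.01, 2215 genes were called in the posterior palate (4625 at 0.05), 2194 between control regions (3717) and 1839 between tamoxifen regions (2846). With the length and GC trend removed, 3 of the 10 were called in the anterior palate, 2 in the posterior palate and 7 between control regions. Over all genes, 5232 and 2855 were then called under tamoxifen in the anterior and posterior palate, and 4297 between control regions. Uncalled values close to 0 changed sign under several settings. The Twist1 difference of effects was positive at 0.00692 with DESeq2, 0.019 with limma-voom, 0.00694 with median-of-ratios scaling, 0.0043 with library totals, 0.0038 without a filter and 0.012 with the stricter filter. Zeb2 between tamoxifen regions was 0.0095 with upper quartile scaling and 0.026 with library totals. With the trend removed, the log2 change under tamoxifen reversed in the anterior palate for Osr1 (0.29), Prrx2 (0.0623), Twist1 (0.0498) and Zeb2 (−0.0801), and in the posterior palate for Osr1 (0.14) and Snai1 (0.11). The difference of effects then reversed for Osr1 (0.15), Prrx1 (−0.0756), Prrx2 (0.20), Twist1 (0.29), Twist2 (0.0338) and Zeb2 (−0.11), and the control regional difference for Zeb2 (0.0828). Without 1 library, signs also changed for Snai1 (−0.12 to 0.12) and Snai2 (−0.15 to 0.01) between control regions, Zeb2 between tamoxifen regions (−0.18 to 0.0734), and the difference of effects of Osr1 (−0.12 to 0.0303), Twist1 (−0.12 to 0.10) and Twist2 (−0.15 to 0.0759). DESeq2 called 179 genes for the difference of effects. Of 120 group levels recomputed under other scalings, 119 moved by less than the spread between libraries. The cause of these changes was not tested.

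Replicate numbers are shared by the groups. In the counts as deposited, 7 of 18 same-numbered pairs correlated above 0.1 in their deviations (median −0.015), and 4 libraries correlated best with their own number. The length and GC curve, which differed between libraries of a group, was still in these values. They therefore cannot decide whether same-numbered libraries were paired. With the replicate block, 5 of the 10 genes were called between tamoxifen regions (3 without it), and the Twist1 difference of effects was 0.017. The share of all genes called between tamoxifen regions in that fit is not given here, so the count of 5 cannot be set against it. With the block and the trend removed together, 4 of the 10 were called in the anterior palate and 7 between control regions. Of all 15958 genes, 5035 were then called in the anterior palate, 2728 in the posterior palate, 4154 between control regions and 1 for the difference of effects. The posterior calls of Twist2 (−0.28, adjusted p = 0.00914) and Zeb1 (0.17, adjusted p = 0.0387) held in that fit and were lost in the one without the block. The same was true of the anterior call of Twist2 (−0.25, adjusted p = 0.00934). Reversed values were then 0.29 for Osr1, 0.0615 for Prrx2, 0.0482 for Twist1 and −0.0917 for Zeb2 in the anterior palate, 0.14 for Osr1 and 0.10 for Snai1 in the posterior palate, and 0.0754 for Zeb2 between control regions. The difference of effects was 0.15 for Osr1, −0.0755 for Prrx1, 0.20 for Prrx2, 0.29 for Twist1, 0.0322 for Twist2 and −0.12 for Zeb2.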

Other observations

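The length and GC curve also differed between libraries of the same group. For Zeb2, the longest of the 10 transcripts, the curve ran from −0.65 to −0.09 (log2) in the 6 control libraries and from 0.24 to 0.47 in the 6 tamoxifen libraries. For Prrx2, which has the highest GC content, it ran from −0.02 to 0.60 in controls and from −0.49 to −0.08 under tamoxifen. The spread within groups, as the SD of log2 CPM pooled over the 4 groups, was smaller with the curve subtracted for 7 of the 10 genes. It went from 0.19 to 0.085 for Prrx2, from 0.17 to 0.11 for Twist1 and from 0.087 to 0.057 for Prrx1. It was larger for the other 3: Zeb2 went from 0.16 to 0.19, Snai2 from 0.084 to 0.12 and Osr2 from 0.116 to 0.12.

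With the curve subtracted, Prrx1 measured 923 to 999.6 CPM in control anterior and 1018 to 1069 CPM in tamoxifen anterior, which still do not overlap. Twist1 measured 487 to 509.7 CPM in control anterior and 489 to 569 CPM in tamoxifen anterior, which overlap, and 675 to 718 CPM in control posterior and 508 to 641 CPM in tamoxifen posterior, which do not. Osr1 measured 55.7 to 64.6 CPM in control anterior and 71.98 to 76.4 CPM in tamoxifen anterior.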
